A study of Mus musculus with 27 samples.

Results

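The Isg15 conjugation pathway was followed through 5 genes, Isg15, Uba7, Ube2l6, Herc6 and Usp18, in RNA-seq libraries of Setdb1 cKO iMEFs. These 5 genes were taken by name. They were 5 of 20483 genes with a value in the total RNA experiment, 21369 in the siRNA experiment and 21524 in the inhibitor experiment, and all 5 were among the 9573, 10572 and 11309 genes tested in these experiments. The level of a gene is given in FPKM, the number of fragments scaled to transcript length and to the mapped fragments of the library.

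Isg15 is a small ubiquitin-like protein that is attached to other proteins. Its attachment runs through an enzyme chain of the ubiquitin type: Uba7 activates Isg15, Ube2l6 carries it, Herc6 is the main ligase in the mouse that joins it to its targets, and Usp18 is the protease that removes it. Usp18 also binds the type I interferon receptor and dampens its signal. All these genes are known as interferon-stimulated genes, which are switched on by the transcription factor complex ISGF3.

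The 27 libraries came from immortalized mouse embryonic fibroblasts (iMEFs) in which 4-hydroxytamoxifen (4OHT) induces deletion of Setdb1, a methyltransferase for lysine 9 of histone H3. According to the methods, the cells were a single recloned line, so every group shares its clone and its conditional Setdb1 allele. The total RNA experiment, with rRNA depleted, held 3 untreated libraries, 3 libraries of cells given 4OHT for 4 days and harvested at day 5 (4OHT day 5), and 3 libraries that the labels place more than 2 weeks after 4OHT, where the methods give a shorter minimum (long-term KO). In the siRNA experiment, cells were transfected with control siRNA (siCtrl) or siRNA against the maintenance DNA methyltransferase Dnmt1 (siDnmt1), alone or with 4OHT added at day 0 (4OHT + siCtrl and 4OHT + siDnmt1), and harvested at day 6, with 2 libraries per group. In the inhibitor experiment, cells were left untreated, treated with 150 nM of the histone deacetylase inhibitor TSA for 24 h or with 1 µM of the MEK inhibitor PD0325901 for 24 h, taken at day 6 of 4OHT (4OHT day 6), or given 4OHT and PD0325901 together (4OHT + PD0325901), again with 2 libraries per group. The labels number the replicates without saying whether they came from separate cultures, so the p-values measure only the spread between these libraries.

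With counting alone taken to set their width, the deposited intervals implied 37.07 to 42.4 M fragments per library in the total RNA experiment. They implied 13.84 to 15.76 M in the siRNA experiment and 10.89 to 12.82 M in the inhibitor experiment. For the total RNA libraries the methods state a larger number of paired-end reads per sample, and the gap was not examined. Fibroblast markers were present throughout, with all 7 to 9 of the 10 markers that had a value at 1 FPKM or more in every library, while of 12 haematopoietic and myeloid markers the lymphoid Cd3e and the myeloid Tyrobp were listed at 0 in every library. Of that list, Cd68 reached 1 FPKM in every library of the siRNA and inhibitor experiments, and Cd14 did so in some groups. The markers with a value summed to 0.968 to 2.18 FPKM in the total RNA libraries. The sums were 3.92 to 11.6 FPKM in the siRNA libraries and 4.69 to 68.2 FPKM in the inhibitor libraries, where the highest were those with TSA. The targeted gene, Setdb1, was at 5.95, 5.53 and 5.16 FPKM in the untreated total RNA libraries and at 4.16, 4.20 and 6.52 FPKM in those labelled 4OHT day 5. It was at 7.24, 7.32 and 6.96 FPKM in long-term KO and at 5.00 to 7.58 FPKM in all 8 siRNA libraries. In the inhibitor experiment Setdb1 was at 5.34 to 10.1 FPKM in the 6 libraries without 4OHT, at 5.30 FPKM in 4OHT day 6 replicate 2, and listed at 0 in the other 3 libraries with 4OHT. These values of 0 were not flagged as failed estimates, and their cause was not tested. The labels could not be checked with these values, because the part of Setdb1 that is deleted is not given in the sources used here, and a value for the whole gene may miss it. Dnmt1 was at 80.5 and 73.4 FPKM with siCtrl and at 12.2 and 10.6 FPKM with siDnmt1, and it was 78.7 and 78.3 FPKM in 4OHT + siCtrl and 12.2 and 11.4 FPKM in 4OHT + siDnmt1. The 2 libraries of 4OHT + siCtrl differed from each other more than 2-fold at 1212 of 10572 genes. Between the replicates of the other siRNA groups this held for 258 to 551 genes. The count does not say which of the 2 libraries is the unusual one. Results that rest on this group are given with and without each of them. Bulk RNA cannot tell more expressing cells from more RNA per cell.

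At day 5 of 4OHT, all 5 genes of the pathway rose. Isg15, the modifier itself, and Usp18, its protease, rose most, while the activating, carrying and ligating enzymes rose by smaller factors. A gene was called when its adjusted p-value lay below 0.05 and it differed by 2-fold or more. All 5 were called higher, against 2.09% of all genes tested called higher, 1.33% lower and 3.42% either way. A gene was tested here if 3 libraries reached 1 FPKM. Uba7 and Usp18 were under 1 FPKM in every untreated library and entered the test only through the other groups. Their calls of higher are therefore not independent of the filter. The 5 log2 fold changes had a median of 2.26, and that of all genes tested was 0.00.

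Isg15 lies on chromosome 4 from 155573533 to 155574927 (mm9) on the minus strand. It was at 1.95, 2.47 and 2.08 FPKM in the untreated libraries and at 94.6, 63.7 and 63.4 FPKM in the 4OHT day 5 libraries. No untreated library came near the 4OHT libraries, and replicate 1 was the highest of the latter. The ratio of the group means was 34.1, and the log2 fold change on the log2(FPKM + 0.1) scale was 5.01 ± 0.19 (SE, n = 3 and 3, adjusted p = 9.66e-07, limma). The promoter of Isg15 is shown because it alone among the 4 member promoters found in the RefSeq table (build GRCm38.p6) holds the searched interferon-response letters, GAAA followed by any 2 bases and a second GAAA. They were searched on both strands, with overlapping matches counted, and capitals mark them below. The promoter of Uba7, the member whose FPKM departed most from the others in the inhibitor experiment, is shown for comparison. It holds no match, and neither do those of Ube2l6 and Herc6.
Isg15, chr4:155574878-155575177, minus strand, mm9: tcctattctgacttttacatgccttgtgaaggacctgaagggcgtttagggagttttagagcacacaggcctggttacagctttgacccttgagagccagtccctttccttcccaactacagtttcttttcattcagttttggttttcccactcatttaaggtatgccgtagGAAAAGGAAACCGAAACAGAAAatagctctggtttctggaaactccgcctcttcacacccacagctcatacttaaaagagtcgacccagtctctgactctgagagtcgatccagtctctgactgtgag
Uba7, chr9:107877648-107877947, plus strand, mm9: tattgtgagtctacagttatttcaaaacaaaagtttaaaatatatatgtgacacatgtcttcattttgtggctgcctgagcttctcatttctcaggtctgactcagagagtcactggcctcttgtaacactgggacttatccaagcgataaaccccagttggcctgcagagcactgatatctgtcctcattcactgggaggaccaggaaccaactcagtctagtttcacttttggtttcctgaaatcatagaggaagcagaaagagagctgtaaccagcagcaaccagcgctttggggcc
Each window runs from 250 bases before to 50 bases after the start site and occurred once on its chromosome in mm9. The capitals in the Isg15 promoter cover 3 overlapping matches, GAAAAGGAAA, GAAACCGAAA and GAAACAGAAA, whose first bases lie at -78, -72 and -66 from the start site. Among all 32851 promoters of this length, 3.44% held at least 1 match. The promoters of Uba7, Ube2l6 and Herc6 held none, which says only that these exact letters are not in these windows. Near matches were not searched, and a relation of the letters to the levels of the genes was not tested.

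Usp18, on chromosome 6 from 121195924 to 121220935, started from a very low level. It was at 0.171, 0.216 and 0.152 FPKM untreated, where each deposited interval reached down to 0, and at 8.28, 8.07 and 7.05 FPKM at 4OHT day 5. The 3 libraries of each group lay close together and the groups did not overlap. Its log2 fold change was 4.83 ± 0.11 (SE, n = 3 and 3, adjusted p = 9.10e-08, limma), a value that the added 0.1 holds down for a gene this low.

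The enzymes of the chain changed less. Uba7, the E1 enzyme on chromosome 9 from 107877898 to 107886387, was at 0.630, 0.574 and 0.568 FPKM untreated and at 2.72, 3.68 and 3.28 FPKM at 4OHT day 5. Every 4OHT library was above every untreated library, and the log2 fold change was 2.26 ± 0.12 (SE, adjusted p = 2.56e-05, limma). Ube2l6, the E2 enzyme on chromosome 2 from 84638985 to 84650160, went from 5.58, 5.64 and 4.95 FPKM to 15.4, 18.3 and 16.3 FPKM. The groups did not overlap, with a log2 fold change of 1.61 ± 0.08 (SE, adjusted p = 3.84e-06, limma). Herc6, the ligase on chromosome 6 from 57530986 to 57615130, went from 2.68, 1.21 and 2.23 FPKM to 11.7, 5.55 and 8.35 FPKM. Both of its groups spread more than 2-fold without overlapping, and the log2 fold change was 2.02 ± 0.37 (SE, adjusted p = 0.00432, limma). The deposited intervals of Herc6 did not order the replicates as its FPKM did. If counting alone set their width, they would correspond to 211 and 274 fragments in untreated replicates 1 and 2. At 4OHT day 5 this gave 455 and 827 in replicates 1 and 2. What the spread of Herc6 between replicates reflects was not tested.

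**Figure D1:**
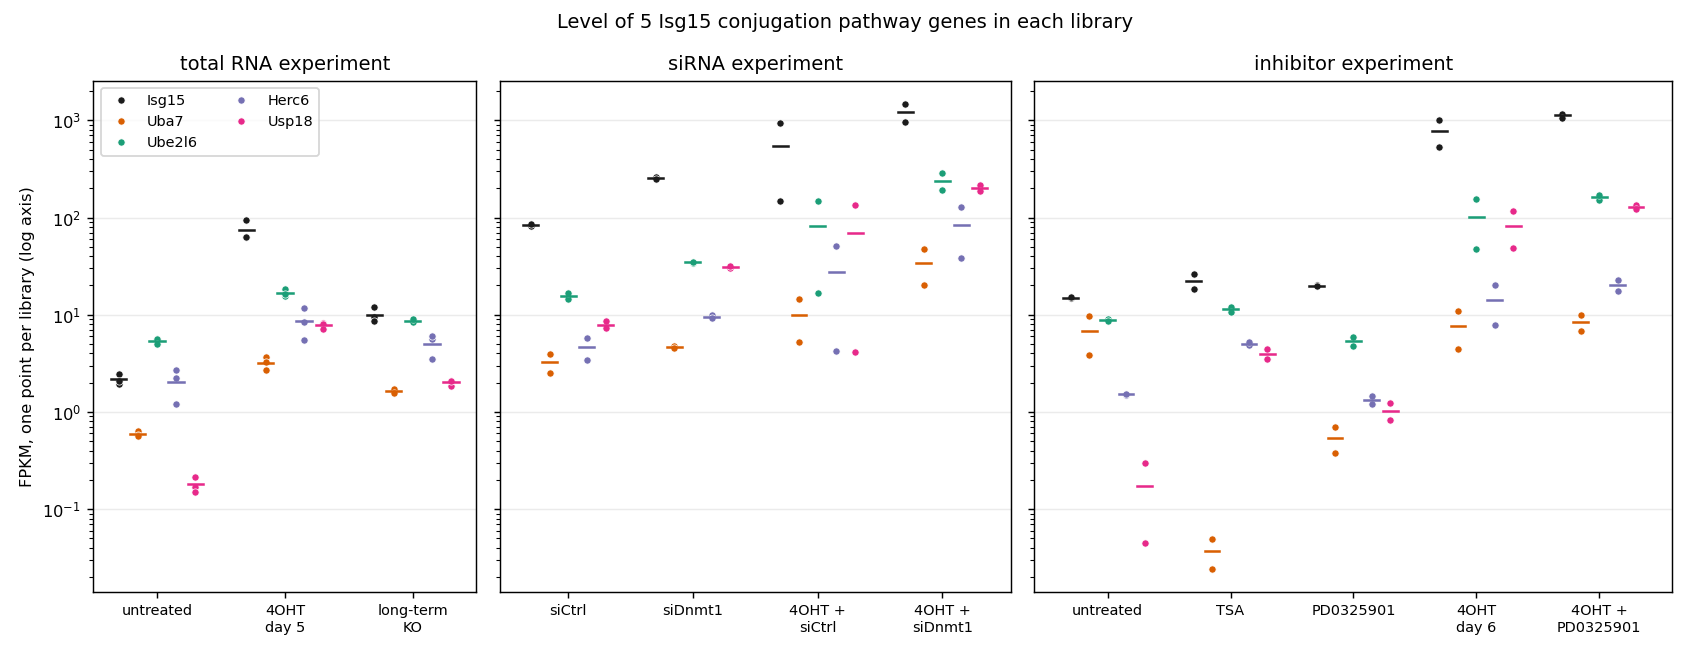
FPKM of the 5 genes in each library, on a log axis, for the 3 experiments; points are libraries and short lines are group means, with 2 or 3 libraries per group. In the total RNA panel Isg15 moves from about the level of Herc6 when untreated to the top at 4OHT day 5 (63.4 to 94.6 FPKM), and in the siRNA panel the 2 libraries of 4OHT + siCtrl lie far apart for every gene.

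The unequal rises changed the order of the levels. In the untreated total RNA libraries Ube2l6 was the highest of the 5 genes and Usp18 the lowest, and Isg15 (mean 2.17 ± 0.27 FPKM, SD, n = 3) and Herc6 (2.04 ± 0.75 FPKM, SD, n = 3) did not differ beyond their spread. At 4OHT day 5 Isg15 was at 73.9 ± 18.0 FPKM (SD, n = 3), followed by Ube2l6 at 16.7 ± 1.47 FPKM, while Herc6 (8.53 ± 3.08 FPKM) and Usp18 (7.80 ± 0.66 FPKM) overlapped and Uba7 was lowest at 3.22 ± 0.49 FPKM. Within a library, Isg15 was at 0.349 to 0.438 times the level of its carrier enzyme Ube2l6 when untreated, and at 3.48 to 6.14 times that level at 4OHT day 5. The ratio of Isg15 to Usp18 was 11.4 to 13.7 untreated and 7.89 to 11.4 at 4OHT day 5.

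In long-term KO cells the 5 genes lay between the untreated and the 4OHT day 5 libraries. Against untreated cells, 4 of the 5 were called higher, where 7.59% of all genes tested were called higher, 6.28% lower and 13.9% either way. The limit from the filter given for Uba7 and Usp18 at 4OHT day 5 holds here as well. Ube2l6 had an adjusted p-value of 9.67e-05 (limma) but stayed under 2-fold, with a log2 fold change of 0.69 ± 0.08 (SE). Isg15 was at 11.995, 9.49 and 8.62 FPKM and Usp18 at 2.08, 1.86 and 2.09 FPKM, in each case above every untreated and below every 4OHT day 5 library. Against untreated, the log2 fold changes were 2.15 ± 0.19 for Isg15 (SE, adjusted p = 2.40e-05, limma) and 2.92 ± 0.11 for Usp18 (SE, adjusted p = 2.58e-07, limma). Ube2l6 was at 8.78, 8.36 and 9.01 FPKM. Herc6 was at 5.60, 3.49 and 6.04 FPKM, above all untreated libraries but overlapping with 4OHT day 5, with a log2 fold change against untreated of 1.30 ± 0.37 (SE, adjusted p = 0.0153, limma). That of Uba7 was 1.34 ± 0.14 (SE, adjusted p = 0.000123, limma), from 1.73 and 1.57 FPKM in replicates 1 and 3. In replicate 2 Uba7 shared 1 assembled locus with its neighbour Traip, so that value was not used and n is 2. With a pseudocount of 1 in place of 0.1, Uba7 (0.74) and Herc6 (1.00) were just under the call and 2 members were called. Herc6 also lost its call without untreated replicate 2 (0.98) or long-term KO replicate 3 (1.15).

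Long-term KO was also compared directly with 4OHT day 5. Isg15 and Usp18 were called lower, 2 of the 5 genes, where 5.98% of all genes tested were called lower, 6.52% higher and 12.5% either way. Isg15 fell by 2.86 on the log2 scale (SE 0.19, adjusted p = 5.61e-06, limma) and Usp18 fell by 1.90 (SE 0.11, adjusted p = 2.54e-06, limma). Ube2l6 and Uba7 were also lower, with log2 fold changes of -0.92 ± 0.08 (SE, adjusted p = 1.90e-05, limma) and -0.92 ± 0.14 (SE, adjusted p = 0.000904, limma), but did not reach 2-fold. All long-term KO values of these 4 genes were below all 4OHT day 5 values, as were those of 33.8% of all genes tested, and 30.4% of all genes tested were lower at an adjusted p under 0.05 with no limit on fold. For Herc6 the value was -0.72 ± 0.37 (SE, adjusted p = 0.123, limma), within the spread between replicates. The ratio of Isg15 to Ube2l6 was 0.957 to 1.37 in the long-term KO libraries, between the ranges of the other groups.

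**Figure D2:**
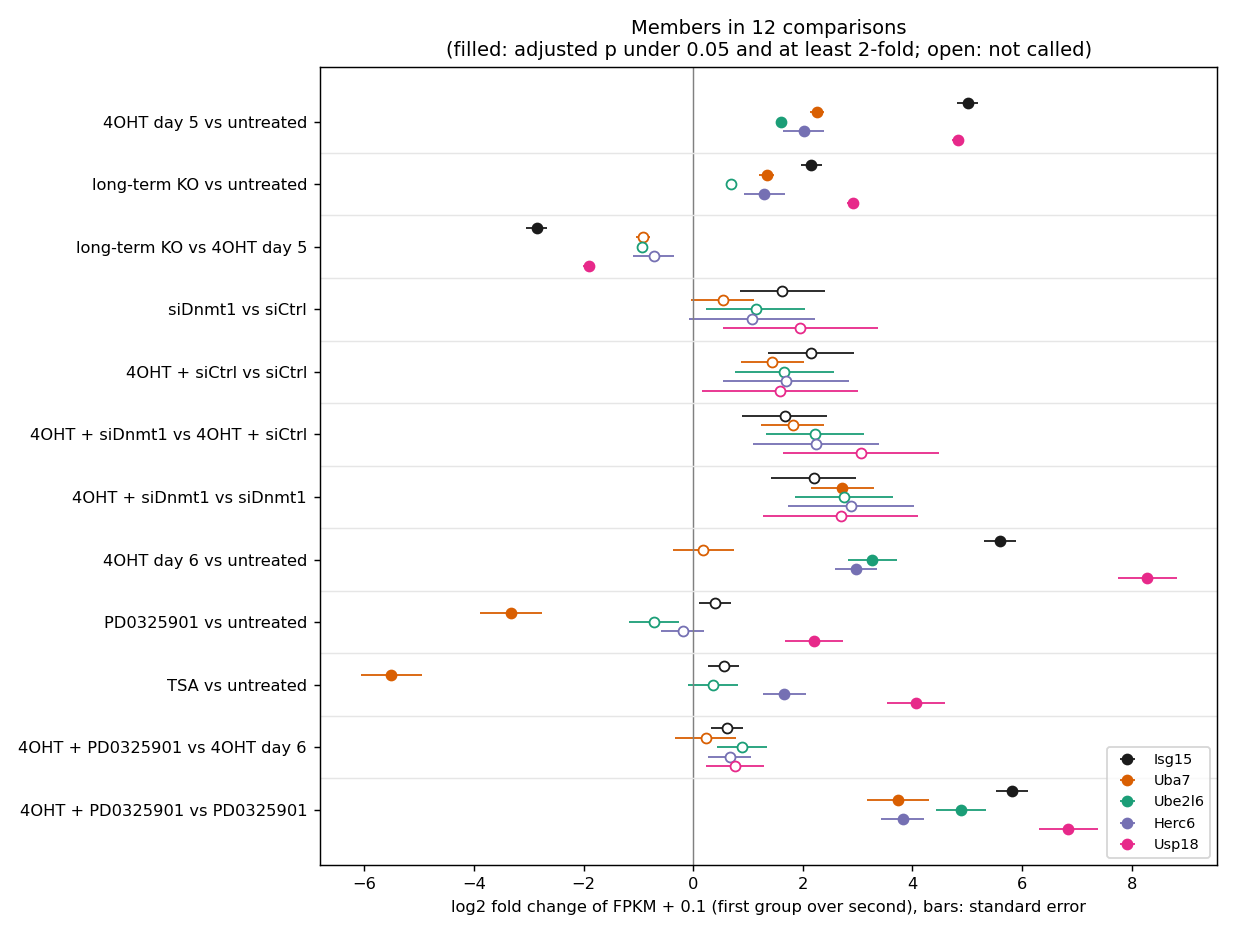
Log2 fold change of FPKM + 0.1 for the 5 genes in 12 comparisons, with standard errors as bars; filled points were called (adjusted p under 0.05 and at least 2-fold) and open points were not. All 5 points are filled at 4OHT day 5 and in 4OHT + PD0325901 against PD0325901, and the filled points below 0 are Isg15 (-2.86) and Usp18 (-1.90) in long-term KO against 4OHT day 5 and Uba7 with TSA (-5.51) and with PD0325901 (-3.32).

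The siRNA experiment asked whether loss of Dnmt1 adds to loss of Setdb1. With siDnmt1 alone, all 5 genes were higher in both siDnmt1 libraries than in both siCtrl libraries, which also held for 27% of all genes tested, yet 0 of 5 were called by limma, where 4.83% of all genes tested were called (2.37% higher, 2.46% lower) and 2750 genes had an unadjusted p under 0.05. Isg15 went from 80.9 and 85.6 FPKM to 264 and 251 FPKM, and Usp18 from 7.25 and 8.62 FPKM to 30.3 and 31.7 FPKM. Ube2l6 went from 14.6 and 16.9 FPKM to 34.1 and 35.3 FPKM. These 3 genes were tight within both groups. Their standard errors come from the shared spread of all 4 groups, which includes the 2 unlike libraries of 4OHT + siCtrl. Without 4OHT + siCtrl replicate 2 all 3 were called, with the same log2 fold changes, 1.63 for Isg15, 1.96 for Usp18 and 1.14 for Ube2l6. Leaving out 4OHT + siCtrl replicate 1 in its place gave the same 3 calls. Herc6 was at 3.46 and 5.77 FPKM with siCtrl and 9.84 and 9.20 FPKM with siDnmt1, and Uba7 at 3.95 and 2.51 FPKM against 4.74 and 4.501 FPKM, and neither was called in any of these fits.

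With 4OHT + siCtrl the replicates disagreed for every gene. Isg15 was at 937 and 147 FPKM, Usp18 at 136 and 4.10 FPKM, Ube2l6 at 147 and 16.9 FPKM, Herc6 at 51.3 and 4.20 FPKM and Uba7 at 14.5 and 5.24 FPKM. The 11 haematopoietic and myeloid markers with a value summed to 4.90 to 11.6 FPKM here, to 3.92 to 5.03 FPKM with siCtrl, to 7.03 to 7.09 FPKM with siDnmt1 and to 11.4 to 11.6 FPKM in 4OHT + siDnmt1, and their part in the siRNA results was not tested. In replicate 2, Usp18 was below both siCtrl libraries and Ube2l6 matched the higher of them, while Isg15 was still above both. Against siCtrl, 0 of 5 genes were called by limma, where 6.04% of all genes tested were called (2.58% higher, 3.46% lower) and 3461 had an unadjusted p under 0.05. Without replicate 2, 5 of 5 were called, with log2 fold changes from 2.17 for Uba7 to 4.09 for Usp18. Without replicate 1, 0 of 5 were called, and the values of Usp18 (-0.93) and Herc6 (-0.09) turned negative. The lone remaining library is then taken to vary like the other groups.

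In the 4OHT + siDnmt1 libraries every one of the 5 genes reached its highest level of the siRNA experiment in replicate 1. Isg15 was at 1464 and 952 FPKM, Ube2l6 at 284 and 192 FPKM, Usp18 at 216 and 186 FPKM, Herc6 at 130 and 38.2 FPKM and Uba7 at 47.5 and 20.2 FPKM. The deposited intervals of Herc6 would correspond to 1436 and 1305 fragments if counting alone set their width. The cause of its wider gap in FPKM was not tested. Against siDnmt1 alone all 5 genes were higher in both libraries, as were 47.6% of all genes tested, and Uba7 was called higher, 1 of 5, where 3.41% of all genes tested were called higher, 2.28% lower and 5.69% either way. The median log2 fold change was 2.72 for the 5 genes and 0.14 for all genes tested. Its log2 fold change was 2.72 ± 0.58 (SE, n = 2 and 2, adjusted p = 0.0357, limma). The log2 fold changes of the other 4 genes were 2.199 to 2.88 and were not called. All 5 were called without either 4OHT + siCtrl library, and 0 were called when any of the other 6 libraries was left out. Against 4OHT + siCtrl, 0 of 5 genes were called by limma, where 1.46% of all genes tested were called (1.05% higher, 0.407% lower) and 2070 had an unadjusted p under 0.05, with log2 fold changes from 1.67 for Isg15 to 3.07 for Usp18. Without 4OHT + siCtrl replicate 1 these became 5 calls, and without replicate 2 there were 0. The interaction of 4OHT with siDnmt1, which asks whether the 2 treatments together differ from their sum on the log2 scale, was called for 0 of 5 genes, where 0.199% of all genes tested were called (0.123% higher, 0.0757% lower) and 1060 had an unadjusted p under 0.05. Its values ran from 0.05 ± 1.10 for Isg15 to 1.28 ± 0.82 for Uba7 (SE), and without 4OHT + siCtrl replicate 2 those of Isg15 (-1.29), Usp18 (-1.40), Herc6 (-0.61) and Ube2l6 (-0.47) were negative. Without replicate 1 they were positive, at 1.38 for Isg15, 3.62 for Usp18, 2.96 for Herc6 and 2.64 for Ube2l6, and those of Usp18 and Ube2l6 were called.

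In the inhibitor experiment 4OHT day 6 again raised Isg15, Usp18, Ube2l6 and Herc6, and Uba7 did not pass the test. This made 4 of 5 genes called higher, where 4.87% of all genes tested were called higher, 6.21% lower and 11.1% either way. Usp18 was under 1 FPKM in both untreated libraries and entered the test only through treated groups. Its calls of higher in this experiment are therefore not independent of the filter. Isg15 was at 14.9 and 15.1 FPKM untreated and at 526 and 1013 FPKM at 4OHT day 6, a ratio of means of 51.4 and a log2 fold change of 5.60 ± 0.29 (SE, n = 2 and 2, adjusted p = 5.02e-05, limma). Usp18 was nearly absent when untreated, at 0.0452 FPKM with a deposited interval of 0 to 0.136 FPKM and at 0.299 FPKM with an interval of 0.0548 to 0.543 FPKM, and reached 48.9 and 116 FPKM. Its log2 fold change of 8.29 ± 0.53 (SE, adjusted p = 0.000143, limma) ranked 4 of 11309 genes. Ube2l6 rose from 8.99 and 8.72 FPKM to 47.9 and 155 FPKM, a log2 fold change of 3.27 ± 0.45 (SE, adjusted p = 0.00320, limma). Herc6 rose from 1.504 and 1.534 FPKM to 7.84 and 20.2 FPKM, a log2 fold change of 2.97 ± 0.39 (SE, adjusted p = 0.00270, limma). In all 4, replicate 2 of 4OHT day 6 was about 1.92 to 3.24 times as high as replicate 1.

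Several values of Uba7 in the inhibitor experiment were uncertain by their deposited intervals. In untreated cells of the inhibitor experiment it was at 9.69 and 3.83 FPKM, with wide deposited intervals of 5.00 to 14.4 FPKM and 2.33 to 5.33 FPKM, and at 4OHT day 6 it was at 4.42 and 10.9 FPKM. The groups overlapped, and the log2 fold change was 0.19 ± 0.56 (SE, adjusted p = 0.847, limma). Leaving out untreated replicate 2 gave -0.47 and leaving out 4OHT day 6 replicate 2 gave -0.46. If counting alone set their width, these intervals would correspond to 17.1 and 26.2 fragments in the untreated libraries, against 87.2 and 317 at 4OHT day 6. The same reckoning gave 0.0104 in TSA replicate 2 at an FPKM above 0, so these implied numbers are not fragment counts. They and the FPKM of Uba7 do not point the same way, and the absence of a call does not show that Uba7 was unchanged. The cause was not tested. With TSA, Uba7 was at 0.0245 and 0.0490 FPKM, and the deposited interval of each began at 0 and ended at 0.0735 and 1.01 FPKM. With PD0325901 it was at 0.381 and 0.700 FPKM, with implied numbers of 14.2 and 5.49. PD0325901 replicate 1 thus had nearly the implied number of untreated replicate 1 (17.1) at a far lower FPKM, and the fall in FPKM with PD0325901 is uncertain for that reason. Both groups lay below the untreated libraries, and Uba7 was called lower in each, with a log2 fold change of -5.51 ± 0.56 with TSA (SE, adjusted p = 0.000148, limma) and -3.32 ± 0.56 with PD0325901 (SE, adjusted p = 0.00965, limma). The latter call was lost when untreated replicate 1 or PD0325901 replicate 1 was left out, with values of -2.66 and -2.95.

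Neither inhibitor alone raised Isg15 past the test. Isg15 was at 26.3 and 18.5 FPKM with TSA and at 20.0 and 19.6 FPKM with PD0325901, and its log2 fold changes were 0.56 ± 0.29 (SE, adjusted p = 0.132, limma) and 0.40 ± 0.29 (SE, adjusted p = 0.399, limma). Usp18 was called higher with both. It was at 3.49 and 4.45 FPKM with TSA, a log2 fold change of 4.07 ± 0.53 (SE, adjusted p = 0.000479, limma), and at 0.835 and 1.23 FPKM with PD0325901, a log2 fold change of 2.21 ± 0.53 (SE, adjusted p = 0.0331, limma). The call with PD0325901 was lost with a pseudocount of 1, where the value was 0.80, with no filter on low values, and in 5 of the 10 fits that left out 1 library (either TSA library, either PD0325901 library or untreated replicate 1). Herc6 was called higher with TSA, at 4.88 and 5.20 FPKM and a log2 fold change of 1.67 ± 0.39 (SE, adjusted p = 0.00794, limma), and with PD0325901 it was at 1.44 and 1.21 FPKM, not called. Ube2l6 was at 12.03 and 10.8 FPKM with TSA and at 4.80 and 5.95 FPKM with PD0325901, and was called in neither. In all, 3 of 5 genes were called with TSA, where 32.1% of all genes tested were called (19.3% higher, 12.8% lower), and 2 of 5 with PD0325901, where 7.25% were (3.09% higher, 4.16% lower). The 12 haematopoietic and myeloid markers, 11 of them with a value, summed to 62.3 to 68.2 FPKM with TSA and to 5.94 to 6.53 FPKM untreated, and their part in the TSA values was not tested.

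Adding PD0325901 to 4OHT changed none of the 5 genes past the test. Isg15 was at 1174 and 1069 FPKM, Ube2l6 at 152 and 169 FPKM, Usp18 at 133 and 123 FPKM, Herc6 at 17.6 and 22.8 FPKM and Uba7 at 6.78 and 9.87 FPKM. Against 4OHT day 6, 0 of 5 were called by limma, where 3.78% of all genes tested were called (2.39% higher, 1.39% lower) and 2555 had an unadjusted p under 0.05, and the log2 fold changes ran from 0.23 ± 0.56 for Uba7 to 0.89 ± 0.45 for Ube2l6 (SE). Leaving out 4OHT day 6 replicate 2, the higher library of that group, gave 3 calls, of Isg15, Ube2l6 and Herc6. Against PD0325901 alone, 5 of 5 were called higher, where 3.11% of all genes tested were called higher, 1.34% lower and 4.45% either way. The log2 fold changes there were 6.85 ± 0.53 for Usp18, 5.82 ± 0.29 for Isg15, 4.88 ± 0.45 for Ube2l6, 3.83 ± 0.39 for Herc6 and 3.74 ± 0.56 for Uba7 (SE), the last against a PD0325901 group at 0.381 and 0.700 FPKM. Uba7 lost this call without 4OHT + PD0325901 replicate 2 (3.47). The interaction of 4OHT with PD0325901 was called for 0 of 5 genes, where 0.716% of all genes tested were called (0.513% higher, 0.203% lower) and 1798 had an unadjusted p under 0.05. It was highest for Uba7, at 3.55 ± 0.79 (SE, adjusted p = 0.104, limma), and negative for Usp18 alone, at -1.44 ± 0.75 (SE, adjusted p = 0.407, limma).

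**Figure D3:**
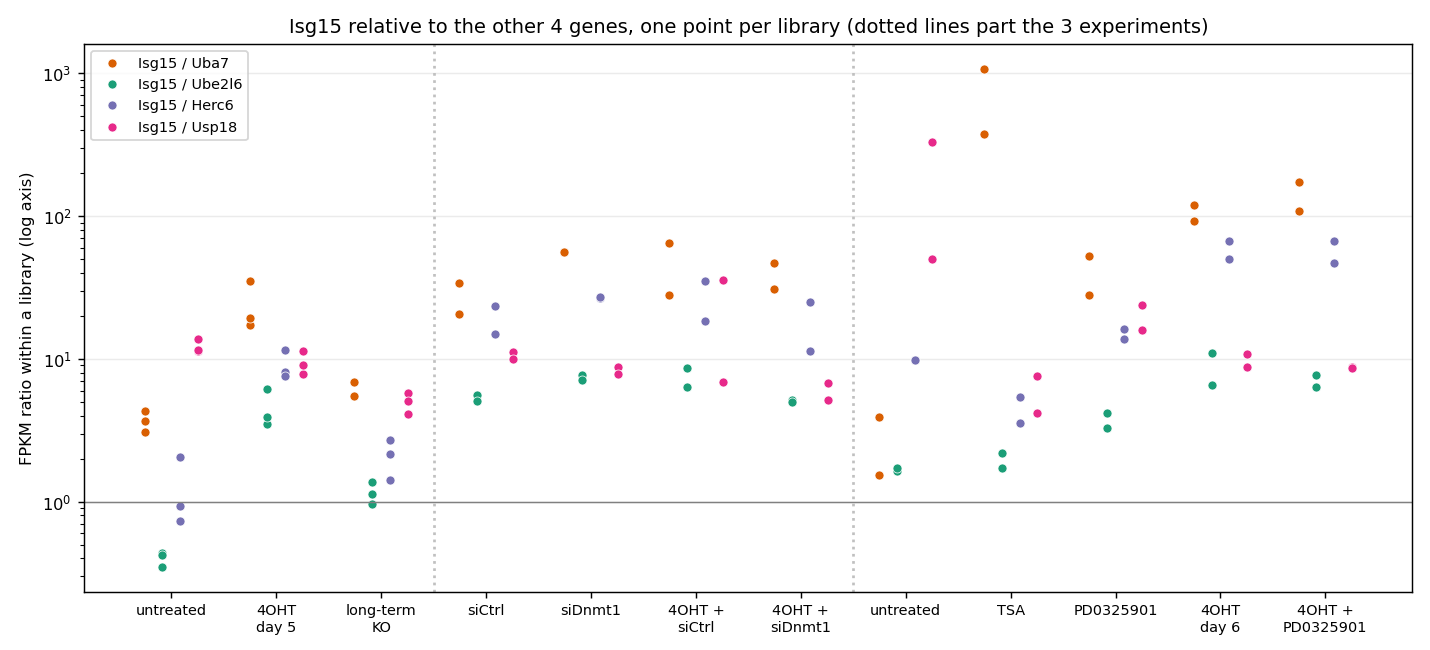
Ratio of the FPKM of Isg15 to that of each other gene within a library, on a log axis, with 1 point per library and dotted lines between the 3 experiments. Isg15 to Ube2l6 is under 1 only in the untreated total RNA libraries and long-term KO replicate 3 (0.957), and Isg15 to Uba7 spreads most, from 1.53 in an untreated library to 1075 in a TSA library.

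Baseline levels differed between the experiments, which were normalized apart and are not compared by a test. Isg15 was near 2 FPKM in untreated total RNA libraries (mean 2.17), at 15.0 FPKM in untreated libraries of the inhibitor experiment and at 83.3 FPKM with siCtrl. Usp18 had means of 0.179, 0.172 and 7.93 FPKM in the same groups. The ratio of Isg15 to Usp18 was 8.68 to 10.8 in all 4 libraries with 4OHT of the inhibitor experiment and 5.12 to 6.90 in 4OHT + siCtrl replicate 1 and both 4OHT + siDnmt1 libraries, but 35.7 in 4OHT + siCtrl replicate 2.

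Genes of the interferon receptor and of ISGF3, which lie upstream of the pathway, were followed as a list of 13. At 4OHT day 5, 3 of the 9 tested were called higher, among them Irf7 and Stat2, and 0 lower, beside 2.09% and 1.33% of all genes tested, with a median log2 fold change of 0.55. Irf7, a transcription factor that amplifies the interferon response, went from 0.411, 0.486 and 0.530 FPKM to 16.3, 19.2 and 17.7 FPKM, a log2 fold change of 4.96 ± 0.11 (SE, adjusted p = 9.10e-08, limma), about that of Isg15. Like Usp18, Irf7 entered this test only through the groups other than untreated. Stat2, a subunit of ISGF3, changed by 2.25 on the log2 scale, while Irf3, a transcription factor that is not itself interferon-stimulated, was at -0.33. In long-term KO against untreated, 2 of the 9, Irf7 (3.11) and Stat2 (1.27), were called higher and 0 lower, beside 7.59% and 6.28% of all genes tested. Against 4OHT day 5, 0 were called higher and 3 lower, beside 6.52% and 5.98% of all genes tested. Those called lower included Irf7 (-1.85) and Irf1 (-1.61). Ifnb1, the gene of interferon beta, was listed at 0 in the untreated and siCtrl libraries and in the 3 long-term KO libraries, at 0.0778, 0.0798 and 0.165 FPKM at 4OHT day 5, at 4.08 and 0.727 FPKM in 4OHT + siCtrl and at 26.2 and 8.54 FPKM in 4OHT + siDnmt1. At 4OHT day 6 it was at 1.01 and 2.03 FPKM, and Irf7 rose there by 6.79 on the log2 scale. With TSA, 2 of the 11 tested were called higher, Irf7 (2.43) among them, and 0 lower, beside 19.3% and 12.8% of all genes tested. With PD0325901, Irf7 (1.58) was the 1 called higher and 0 were lower, beside 3.09% and 4.16% of all genes tested. Usp18 went in the same direction as Irf7 with both. At 4OHT day 6, 3 of the 11 were called higher and 1 lower, beside 4.87% and 6.21% of all genes tested. The 1 called lower was Socs3 (-1.69), which restrains cytokine signalling.

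Proteins known to be modified by or bound to Isg15 were followed as a list of 18. At 4OHT day 5, 8 of the 16 tested were called higher and 0 lower, beside the same shares of all genes, with a median log2 fold change of 1.22. They included Ifit1 (5.20), Mx2 (4.76), Mx1 (4.47), Xaf1 (3.38), Ddx58 (2.22), Bst2 (1.96) and Parp12 (1.61), which are themselves interferon-stimulated genes. The 8 not called included the E2 enzyme Ube2n (-0.23). In long-term KO against untreated, 3 were called higher, Mx1 (2.15), Ifit1 (1.81) and Mx2 (1.72), and Cyld, a deubiquitinase, was called lower (-1.08), beside 7.59% of all genes higher and 6.28% lower. At 4OHT day 6 in the inhibitor experiment 9 of 16 were called higher and 0 lower, beside 4.87% and 6.21% of all genes tested, with a median of 2.56. The 2 largest were the antiviral GTPases Mx2 (7.83) and Mx1 (6.03). With TSA 0 were called higher, and Ifit1 (-3.08), Trp53 (-1.99) and Parp12 (-1.02) were called lower, beside 19.3% and 12.8% of all genes. In the siRNA experiment, 15 were tested. In 4OHT + siDnmt1 against siDnmt1, Mx1 (4.68) was the 1 called higher and 0 were lower, beside 3.41% and 2.28% of all genes tested. In siDnmt1 against siCtrl, 0 were called higher and 1 lower, beside 2.37% and 2.46% of all genes tested.

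Of 8 other ligases and proteases reported for Isg15, 7 were tested in the total RNA experiment. At 4OHT day 5, 1 was called higher and 0 lower, beside 2.09% and 1.33% of all genes tested. It was Trim25, a ligase that is interferon-stimulated, which went from 4.78, 5.30 and 5.23 FPKM to 14.0, 13.6 and 13.7 FPKM. Trim25 was called lower again when the long-term KO libraries were compared with those of day 5 (-1.41). By that test 2 of the 7 were lower and 1 higher, beside 5.98% and 6.52% of all genes tested. Usp16 was also called in some comparisons, but it was listed at exactly 0 in some libraries and at 12.3 to 14.1 FPKM in others of the same experiment. These values of 0 were not flagged as failed estimates, and calls that rest on them are uncertain.

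The rest of the ubiquitin machinery held 0 calls among 60 genes tested at 4OHT day 5, a count close to what the 3.42% of all genes called would give. Among other ubiquitin-like modifiers 0 of 9 tested were called, with a median log2 fold change of -0.12, and the highest was Ubl5 (0.55, adjusted p = 0.383, limma). Of other E1 enzymes 0 of 7 were called (median -0.04), of E2 enzymes 0 of 21 (median 0.07), of the remaining Herc family 0 of 4 (median 0.03) and of other ubiquitin-specific proteases 0 of 19 (median 0.11). Values for single genes were small, such as Uba1, the main ubiquitin E1 (-0.14), Ube2d3 (-0.54), Herc3 (0.26) and Usp11 (0.37). The exception in size was Ube2e1 (2.77 ± 1.85, SE, adjusted p = 0.285, limma), which was listed at 0 in 1 untreated library. In long-term KO against untreated, 4 of the 60 tested genes of these 5 lists were called (6.67%, against 13.9% of all genes). Ubl5 (2.19), Herc3 (1.76) and Ube2h (1.09) were higher and Rps27a (-1.35) lower. With TSA, 12 of the 69 tested genes of these 5 lists were called (17.4%, against 32.1% of all genes), such as Herc3 (3.29) and the autophagy modifier Atg12 (1.80) higher and Usp11 (-1.93) lower, while E1 enzymes had 0 calls among the 9 tested there.

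**Figure D4:**
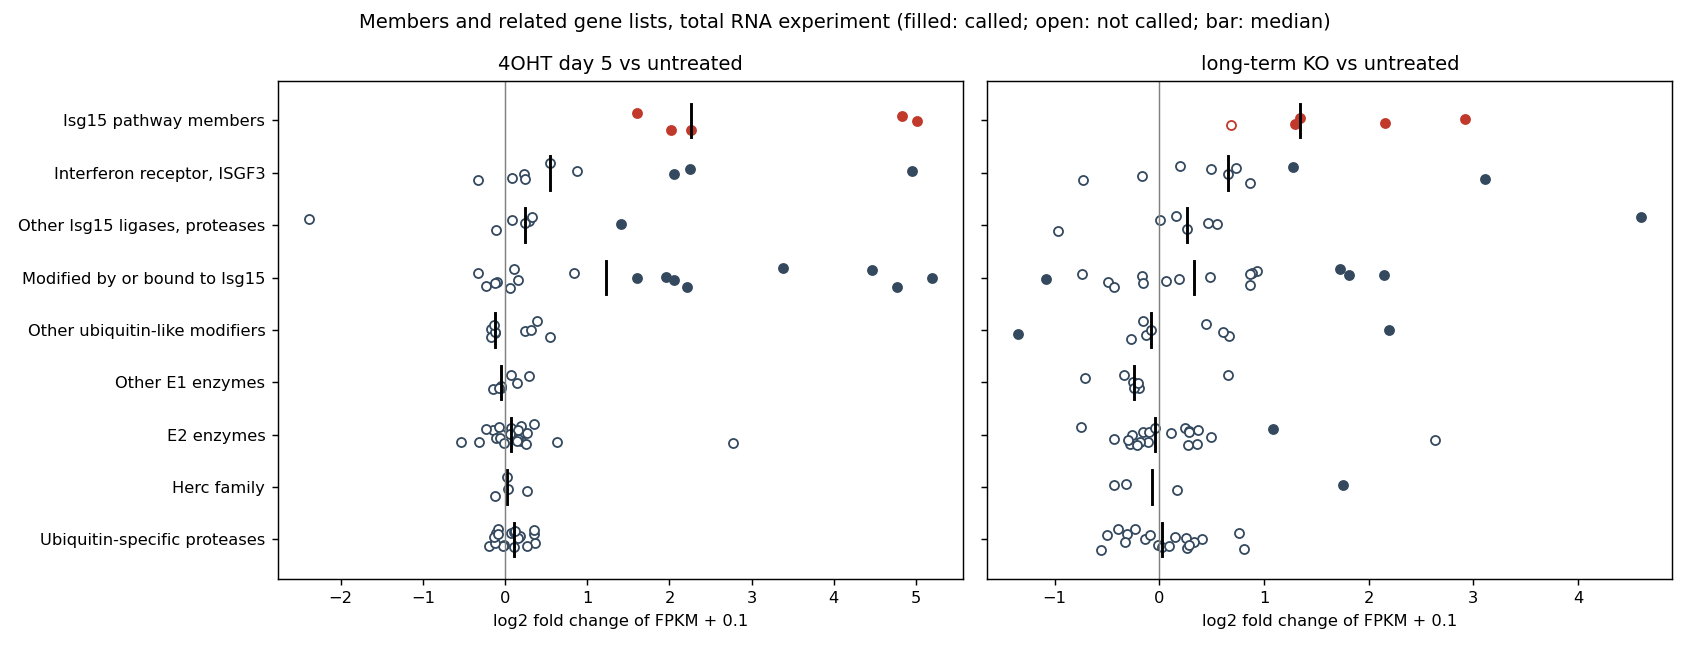
Log2 fold change of FPKM + 0.1 for the 5 genes and for each tested gene of 8 related lists, at 4OHT day 5 (left) and in long-term KO (right) against untreated; filled points were called, open points were not, and bars are medians. At 4OHT day 5 the called points lie among the 5 genes, the interferon receptor list, the Isg15 ligases and the proteins modified by Isg15, and the lists of other modifiers, E1 and E2 enzymes, Herc genes and proteases have none.

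The genes whose pattern was most like that of each member were found over all 27 libraries, after subtracting the control mean of each experiment, among 8954 genes tested in all 3 experiments. The points share their libraries and controls, so the correlations are a description. For Isg15 they were Ifi44 (Pearson r = 0.978), Cmpk2 (0.975) and Oasl2 (0.973). Usp18 was nearest to Irf7 (0.974), Bst2 (0.944) and Oas1b (0.942), and Ube2l6 to Tlr3 (0.983), Adar (0.975) and Dhx58 (0.970). Herc6 was nearest to Tlr3 (0.952) and Trim26 (0.948), followed by Ube2l6 (0.935). Uba7, over 26 libraries, was nearest to Clec2d (0.945), Parp3 (0.938) and Apol6 (0.928), and its r with the other 4 members was 0.122 to 0.521, against 0.823 to 0.935 among those 4. The inhibitor values of Uba7 that were uncertain by their deposited intervals enter this.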

How the data were processed

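RNA-seq of 27 iMEF libraries was used. Per the labels and methods, the authors mapped reads with TopHat2 2.0.12 against mm9, with 1 position kept for a multi-hit read, and ran Cufflinks on each library. The deposited files hold FPKM per assembled locus with 95% intervals. Deposited Cuffdiff tables hold the authors' group FPKM, log2 fold changes, p-values and q-values, and were not used. Members were found by gene name in the siRNA and inhibitor files. The total RNA files carry no names, so loci were matched by position: the locus had to hold 95% of a gene's span (alternative 50%), and loci joining several genes were left out. For rows with a RefSeq accession the match gave the same gene in 99.5 to 99.57%. Depth was computed from the deposited intervals of genes with 1 exon.

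limma 3.58.1 (R 4.3.3) was run separately for the 3 experiments on log2(FPKM + 0.1), all groups in the fit, with trended variance and two-sided tests, Benjamini-Hochberg adjusted over all tested genes. Genes entered a test if 3 (total RNA) or 2 libraries reached 1 FPKM. The fit was tested on simulated data. In all, 12 comparisons and 2 interactions were made. Libraries were grouped by the labels. For PD0325901 replicate 2, 1 header line of the deposited file names the combined treatment, and the label was followed. The labels spell the compound PD0325091 in places.

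The members and gene lists were chosen with earlier results of these data known. Genes named are the members, Setdb1 and Dnmt1, in each list the 2 highest and 2 lowest at 4OHT day 5 and those called in the comparison described, and the 3 genes with the nearest pattern to each member. Ifnb1, Irf3, Usp16 and some marker genes were named with their levels after these were seen. Some genes of the lists are counted but not reported here by name. Alternatives were pseudocounts of 1 and 0.01, no filter, median-ratio scaling, the replicate number as a block, the 50% cover and leaving out each library. Tables and figures used Python 3.11.15 with pandas 2.3.3, numpy 2.4.6 and matplotlib 3.10.9.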

Additional observations from a re-analysis of the deposited data

Results flagged for a closer look

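The effect of 4OHT against untreated cells differed between 4OHT day 5 and long-term KO for 4 of the 5 genes at an adjusted p under 0.05 (limma), 2 of them (Isg15 and Usp18) by 2-fold or more. Over all genes tested, 30.4% were lower at that adjusted p and 5.98% by 2-fold or more. The log2 effect in long-term KO minus that at day 5 was -2.86 for Isg15, -1.90 for Usp18, -0.92 for Ube2l6 and -0.92 for Uba7 (adjusted p = 5.61e-06, 2.54e-06, 1.90e-05 and 0.000904, limma), and every long-term KO library was below every 4OHT day 5 library for each of them, as for 33.8% of all genes. The value of Uba7 rests on 2 long-term KO libraries.

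Assembled loci without a gene annotation lay inside Herc6, on chromosome 6 between 57569966 and 57572121 (mm9), outside all of its GENCODE vM1 exons. They appeared in 1 untreated total RNA library (0.422 FPKM) and in single libraries of other groups, above the controls of the same experiment, where no such locus was listed. The highest value per library was 79.6 FPKM in 4OHT + siDnmt1 replicate 1, which held 4 such loci, 7.52 FPKM in 4OHT + siCtrl replicate 1, 6.37 FPKM in 4OHT day 6 replicate 2, 2.14 FPKM in TSA replicate 2 and 1.37 FPKM in siDnmt1 replicate 2. The other replicate of each of these groups listed none. In the 4OHT groups with such a locus and in TSA, the library that held it was the one with the higher Herc6. In siDnmt1 it was the one with the lower Herc6 (9.20 against 9.84 FPKM). No such locus was listed in 4OHT day 5 or in 4OHT + PD0325901. Their relation to the Herc6 transcript was not tested. Loci without annotation and outside exons were also listed inside Uba7, at 3.70 FPKM in siCtrl replicate 1 and 3.32 FPKM in 4OHT + PD0325901 replicate 1. Inside Ube2l6, a locus of 80 bases was listed at 87514 FPKM in PD0325901 replicate 2.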

How the results depend on the processing

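The calls at 4OHT day 5 (5 of 5), at 4OHT day 6 (4 of 5) and with TSA (3 of 5) kept their number under every alternative, including each library left out. In long-term KO against untreated, a pseudocount of 1 left 2 members called in place of 4, and leaving out 1 library gave 3 to 4. Against 4OHT day 5 the range was 2 to 3. With PD0325901, 1 member was called in place of 2 with a pseudocount of 1 and with no filter, and 0 to 2 when 1 library was left out. Leaving out 1 library gave 0 to 3 calls for siDnmt1, 0 to 5 for 4OHT + siCtrl, 0 to 5 for 4OHT + siDnmt1 against 4OHT + siCtrl, 0 to 5 against siDnmt1 (none of the 8 fits gave the 1 of the full fit), 0 to 2 for the siDnmt1 interaction, 0 to 3 for 4OHT + PD0325901 against 4OHT day 6, 4 to 5 against PD0325901 and 0 to 1 for the PD0325901 interaction. Where the full fit called 0, calls appeared only with 4OHT + siCtrl replicate 1 or 2, or 4OHT day 6 replicate 2, left out. Among the fold changes of single members, 14 changed sign under an alternative, 13 of them with a library left out. Median-ratio scaling gave -0.020 for the siDnmt1 interaction of Isg15. With 1 library left out, the siDnmt1 interaction ran from -1.29 to 1.38 for Isg15, -0.47 to 2.64 for Ube2l6, -0.61 to 2.96 for Herc6 and -1.40 to 3.62 for Usp18. In the same way 4OHT + siCtrl against siCtrl ran from -0.087 to 3.49 for Herc6 and -0.93 to 4.09 for Usp18, 4OHT day 6 from -0.47 to 0.85 for Uba7, 4OHT + PD0325901 against 4OHT day 6 from -0.42 to 0.87 for Uba7 and -0.010 to 1.34 for Herc6, and the PD0325901 interaction from -0.26 to 0.69 for Isg15. The cause was not tested.

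Among all genes, calls at 4OHT day 5 went from 327 to 536 with no filter, those of 4OHT + siDnmt1 against 4OHT + siCtrl from 154 to 235 with no filter and to 78 with the replicate block, and those of the siDnmt1 interaction from 21 to 32 (pseudocount 1), 50 (no filter) and 13 (block). Median-ratio scaling moved the share called higher from 60.0% to 41.9% in 4OHT + siDnmt1 against siDnmt1, where the median of all genes was 0.14 before it and 0.01 after, and from 71.6% to 56.9% in the PD0325901 interaction. The replicate number came from titles only. Same-numbered libraries correlated at -0.0223 to 0.0951, -0.0675 to 0.0154 and -0.0261 to 0.259 in the total RNA, siRNA and inhibitor experiments, so the numbers were not taken as pairs. Within the inhibitor experiment PD0325901, 4OHT day 6 and 4OHT + PD0325901 correlated with each other at 0.206 to 0.259, a hint from the data that these 3 groups may share a number's origin. The replicate block left the member calls at 5, 4 and 2 in the total RNA experiment, at 0, 0, 0, 1 and 0 in the siRNA experiment and at 4, 2, 3, 0, 5 and 0 in the inhibitor experiment, as without it. The levels of Usp18 and Uba7 are the least certain, since their lowest values have intervals that reach 0. The part of depth in this was not tested.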
